A study of Homo sapiens with 4 samples.

Results

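Valproic acid alone was compared with gemcitabine alone in HuCCT1, an established line of human intrahepatic cholangiocarcinoma, a cancer of the bile duct epithelium. The comparison took 2 of the 4 arrays of the study: the array labelled VPA and the array labelled GEM. The other 2 arrays held untreated HuCCT1 cells and cells labelled GEM_VPA, given both agents, and they are used here to place the values of the single agents. VPA and GEM are the abbreviations of the labels, read here in their usual sense, valproic acid and gemcitabine; the sources used here give no dose, length of exposure or culture batch. Each condition was 1 array of total RNA from 1 cell line, so no spread between replicates could be measured and no test was possible: every difference below is a size between 2 arrays, and the number of arrays limits its precision.

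Valproic acid is a short branched fatty acid used against epilepsy. It inhibits histone deacetylases, which raises histone acetylation and opens chromatin at many genes, including genes that a cell type usually keeps silent. Gemcitabine is a deoxycytidine analogue used against pancreatic and biliary cancer: after phosphorylation by deoxycytidine kinase it is built into DNA, blocks chain elongation and inhibits ribonucleotide reductase, which leads to replication stress, arrest in S phase and p53 signalling.

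Expression was measured on the Affymetrix Human Gene 1.0 ST array as log2 intensity, so a difference of 1 is a 2-fold difference. The VPA and GEM arrays were close to each other, with r = 0.9955 over all probe sets and a robust SD of the gene differences (the scaled median absolute deviation, which single genes move little) of 0.16. The untreated and GEM_VPA arrays formed the other close pair, with r = 0.9962 and a robust SD of 0.15. The 4 pairs that cross between them had r between 0.9838 and 0.9868 and a robust SD of 0.25 to 0.27. The array labelled as the combination was thus nearer to untreated cells than to either agent alone. Directions below follow the labels, which no value in the files could check. The array medians lay between 7.87 and 7.92. Bile duct markers stood at or above the array median for 9 of 10 genes on VPA and 8 of 10 on GEM, with EPCAM at 12.68 on VPA and 12.63 on GEM, and KRT19 at 13.58 on VPA and 13.68 on GEM. CFTR, a chloride channel of bile duct cells, was low on both, at 5.78 on VPA and 5.71 on GEM. Among leukocyte markers 2 of 12 reached the median on VPA and 3 of 12 on GEM, and the leukocyte-defining PTPRC stood at 5.34 and 5.23. Hepatocyte markers reached the median for 3 of 10 genes on each array, fibroblast markers for 1 of 11 and endothelial markers for 2 of 8.

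A gene was counted as different between the agents when its values differed at least 2-fold, the ratio limit the authors state, and the higher value reached its array's median, called the level rule here. Of 11477 genes at level, 35 were counted (0.305% of those compared). Of these, 31 were higher on VPA (0.27%) and 4 were higher on GEM (0.0349%). At a limit of 1.5-fold the counts were 228 genes higher on VPA (1.99%) and 36 higher on GEM (0.314%), and at 3-fold 4 genes were higher on VPA and 0 on GEM. Most of the large differences thus lay on the VPA side, while the median difference over all 18377 genes was -0.01, and 47.3% of genes at level were higher on VPA against 52.7% lower. The middle of the distribution was narrow, with the 5th percentile at -0.29 and the 95th at 0.42, while the 99th percentile was 0.72 and the 1st was -0.45. By the same rule 464 genes separated VPA from untreated cells (4.0% of those compared), 221 higher on VPA (1.9%) and 243 lower (2.09%). GEM differed from untreated cells in 521 genes (4.49%), with 172 higher on GEM (1.48%) and 349 lower (3.01%). These comparisons share the untreated array with each other and the VPA or GEM array with the direct comparison.

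**Figure D1:**
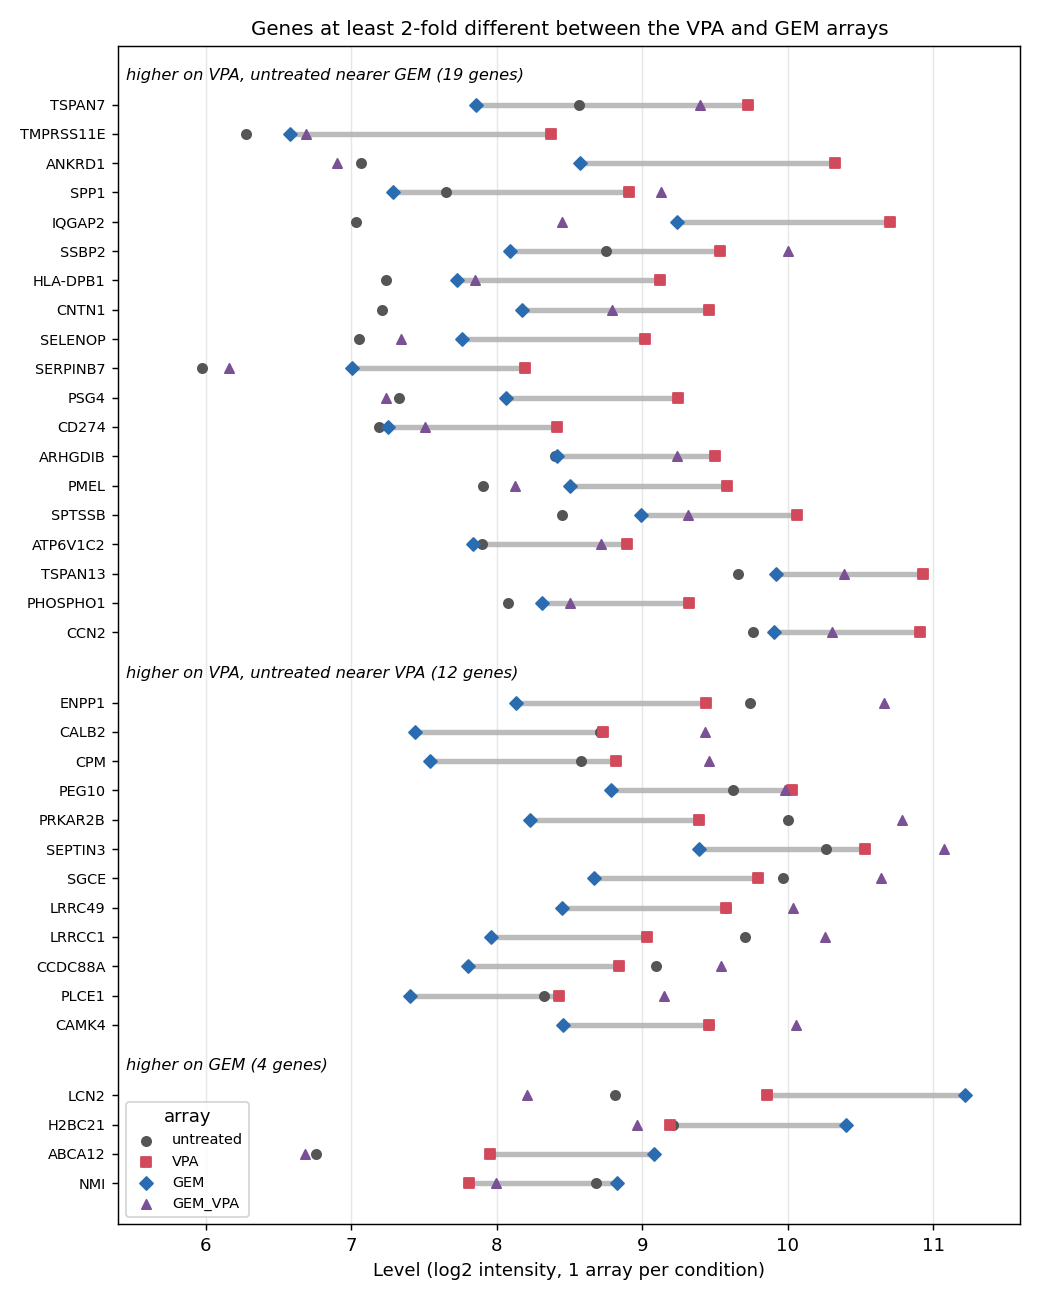
Log2 intensity (x axis) of the 35 genes that differed at least 2-fold between VPA and GEM, 1 row per gene, with a mark for each of the 4 arrays (1 array per condition, so no error bars) and a grey bar from GEM to VPA. The 31 genes higher on VPA and the 4 higher on GEM are shown apart. For 19 of the 31 the untreated value lies nearer to GEM, and for 12 it lies nearer to VPA.

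The untreated array divided the 31 genes higher on VPA. For 19 of them the untreated value lay nearer to GEM: VPA exceeded untreated by 0.79 to 3.67 (median 1.61, with 17 of 19 at least 2-fold), while GEM differed from untreated by -0.71 to 2.20 (median 0.31). For the other 12 the untreated value lay nearer to VPA: VPA differed from untreated by -0.68 to 0.40 (median -0.00, with 0 of 12 at 2-fold), while GEM was below untreated by -1.77 to -0.84 (median -1.20, with 9 of 12 at least 2-fold). The split itself puts VPA above untreated in the larger group and GEM below untreated in the smaller one, so only the sizes describe the data. Within the larger group GEM was above untreated in 15 of 19 genes. TSPAN7 and SSBP2 are among those where it was below, at -0.71 and -0.66.

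In the first group, several genes encode surface, adhesion or secreted proteins or act on proteases. TSPAN7, a membrane protein of the tetraspanin family, had a log2 intensity of 8.56 untreated, 9.73 on VPA, 7.86 on GEM and 9.40 on GEM_VPA. It gave the largest difference of the comparison, 1.87, or 3.65-fold. For 13 of the 35 genes the lower of the 2 values was below its array's median: TSPAN7, TMPRSS11E, SPP1, HLA-DPB1, SELENOP, SERPINB7, CD274, ATP6V1C2, CALB2, CPM, CCDC88A, PLCE1 and NMI. These 13 were no longer counted when both values had to reach the median, which left 22. VPA and GEM_VPA were the high arrays for TSPAN7, and its untreated value lay between VPA and GEM. TMPRSS11E, a membrane-anchored serine protease, stood at 6.28 untreated, 8.38 on VPA, 6.58 on GEM and 6.69 on GEM_VPA, a VPA minus GEM difference of 1.79. Only the VPA array was high, and the untreated value was below the 25th percentile of its array, where signals are weak. SPP1, which encodes the secreted matrix protein osteopontin and is a marker of bile duct cells, was at 7.65 untreated, 8.91 on VPA, 7.28 on GEM and 9.13 on GEM_VPA. Both arrays whose label includes VPA were thus above both arrays whose label does not, and the single agents differed by 1.63. CNTN1, a neuronal cell adhesion protein of the immunoglobulin superfamily, stood at 7.21 untreated, 9.46 on VPA, 8.17 on GEM and 8.79 on GEM_VPA. It was above untreated on all 3 treated arrays, and VPA exceeded GEM by 1.29. TSPAN13, another tetraspanin, was 1.01 higher on VPA than on GEM, with VPA the highest array at 10.93. SERPINB7, an intracellular inhibitor of serine proteases, was higher on VPA by 1.19, and its untreated value, 5.97, was also below the 25th percentile. PSG4, a pregnancy-specific glycoprotein, was higher by 1.18; its family has near-identical copies, so its probes may also read related genes.

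Signalling and scaffold genes formed another share of this group. IQGAP2, a scaffold protein of the cytoskeleton, was at 7.04 untreated, 10.70 on VPA, 9.24 on GEM and 8.45 on GEM_VPA. All 3 treated arrays were above untreated, with VPA 3.67 above it, GEM 2.20 and GEM_VPA 1.42, and the single agents differed by 1.46. SSBP2, a DNA-binding cofactor of LIM-domain transcription complexes, stood at 8.75 untreated, 9.53 on VPA, 8.09 on GEM and 10.00 on GEM_VPA. Its VPA minus GEM difference was 1.45, with GEM the lowest array and GEM_VPA the highest. ARHGDIB, best known from blood cells, was at 8.40 untreated and 8.42 on GEM, against 9.50 on VPA and 9.24 on GEM_VPA. Its untreated and GEM values differed by 0.01, so the separation of the agents, 1.08, lay almost wholly in the VPA value.

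Other genes of this group include a carrier protein, enzymes and a pigment-cell protein. SELENOP, the secreted carrier of selenium, was at 7.05 untreated, 9.02 on VPA, 7.76 on GEM and 7.34 on GEM_VPA, a difference of 1.26 between the agents. PMEL, the fibril-forming protein of melanosomes, stood at 7.90 untreated, 9.58 on VPA, 8.50 on GEM and 8.12 on GEM_VPA, a difference of 1.08. For both genes VPA was highest, GEM lay next and GEM_VPA was within 0.29 of untreated. SPTSSB, a small subunit of serine palmitoyltransferase, the first enzyme of sphingolipid synthesis, was higher on VPA by 1.07. ATP6V1C2, a subunit of the proton pump of acidic organelles, was higher by 1.06. PHOSPHO1, a phosphatase of skeletal mineralisation, was higher by 1.01. In these last 3 genes GEM lay within 0.54 of untreated, at 0.54 above it for SPTSSB, -0.06 for ATP6V1C2 and 0.23 for PHOSPHO1.

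Antigen-presentation and immune-checkpoint genes were also on the VPA side. MHC class II molecules present peptides to helper T cells and are usually made by antigen-presenting cells, and CIITA is their master regulator; CD274 encodes PD-L1, which restrains T cells. HLA-DPB1, the beta chain of HLA-DP, was at 7.24 untreated, 9.12 on VPA, 7.72 on GEM and 7.85 on GEM_VPA, a difference of 1.40 between the agents. CD274 was at 7.19 untreated, 8.41 on VPA, 7.25 on GEM and 7.50 on GEM_VPA, a difference of 1.16. VPA was the only high array for both genes. The other class II genes were gathered after the HLA-DPB1 value was seen and include genes under the 2-fold limit. Of 10 class II pathway genes measured, HLA-DPB1 among them, 7 were at level and 8 were higher on VPA than on GEM, against 47.9% of all genes. Their median difference was 0.43, which includes the HLA-DPB1 value that prompted the list. HLA-DMA, which loads peptide, stood at 8.86 untreated, 10.39 on VPA, 9.39 on GEM and 9.08 on GEM_VPA. HLA-DPA1, the partner chain of HLA-DPB1, stood at 7.27 untreated, 9.26 on VPA, 8.44 on GEM and 7.63 on GEM_VPA. HLA-DOB was 0.65 higher on VPA than on GEM and HLA-DRB5 0.59 higher. All of these were higher on VPA than on GEM, while CIITA differed by 0.07, HLA-DQA1 by -0.14 and HLA-DOA by -0.21. A further 6 probe sets are annotated by the platform jointly to several class II genes, and so cannot be assigned to 1 gene. They are the joint ones that passed the 2-fold and level rule, so a difference of at least 1 was set by their choice. They were 1.06 to 1.20 higher on VPA than on GEM, and joint ones that did not pass are not given. Some carry the same symbols as each other, so they are not 6 separate signals. They ranged from 8.01 to 8.72 untreated, from 10.48 to 11.70 on VPA, from 9.32 to 10.60 on GEM and from 9.24 to 9.54 on GEM_VPA. On each of them every treated array was above untreated and VPA was the highest. Class II genes share long stretches of sequence, so probes of one may read another. Among the leukocyte markers, PTPRC was near the floor on both arrays, and MS4A1, a B cell marker, was at 6.14 on VPA and 5.95 on GEM. LYZ, of the same list, was at level, at 7.86 on VPA and 8.40 on GEM. The source of the class II values was not tested.

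**Figure D2:**
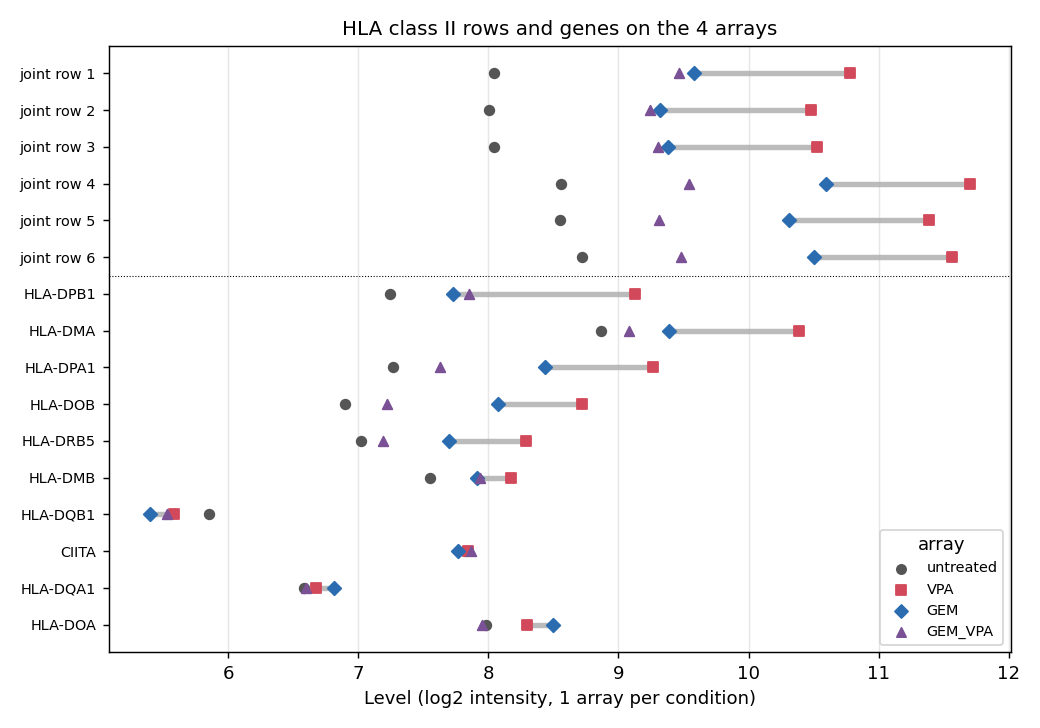
Log2 intensity (x axis) on the 4 arrays, 1 mark per array and no error bars, of the 10 HLA class II pathway genes. Above them are the 6 probe sets annotated to several class II genes (joint rows) that passed the 2-fold and level rule. Grey bars join VPA and GEM. VPA is the highest array for HLA-DPB1, HLA-DPA1, HLA-DMA and the 6 joint probe sets, and GEM lies between untreated and VPA for each of these.

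ANKRD1 and CCN2 brought targets of the YAP and TEAD pathway into the VPA side. YAP is a transcriptional coactivator that the Hippo kinases hold in the cytoplasm; in the nucleus it binds TEAD factors at the motif GGAATG and drives genes of growth and matrix. ANKRD1, a nuclear ankyrin-repeat cofactor, was at 7.07 untreated, 10.32 on VPA, 8.57 on GEM and 6.91 on GEM_VPA. VPA was 3.25 above untreated and GEM was above it by less, so the agents differed by 1.75, while GEM_VPA differed from untreated by -0.17, the opposite side from both single agents. CCN2, a secreted matrix-associated growth regulator also called CTGF, was at 9.76 untreated, 10.91 on VPA, 9.91 on GEM and 10.30 on GEM_VPA. Its difference was 1.00, just past the 2-fold limit. CCN2 was no longer counted when the arrays were normalized again or centred on their medians. TSPAN13, PHOSPHO1 and CAMK4, also within 0.01 of the limit at a difference of 1.01, were not counted after the centring alone. CCN1, the sister gene CYR61, stood at 9.66 untreated, 11.53 on VPA, 10.93 on GEM and 9.96 on GEM_VPA, a difference of 0.61, so both agents were above untreated. Across the 23 YAP and TEAD targets measured, 14 were higher and 9 lower on VPA, with a median of 0.05 against a mean of 0.18. TGFB2 was 0.49 higher on VPA and MYOF differed by -0.29. A few members thus carried the mean and most of the list lay near 0.

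The promoters of ANKRD1 and CCN2 are printed because these are the pathway's genes that passed 2-fold, and that of LCN2, chosen after its values were seen, because it is the gene furthest on the GEM side and also holds the motif. Each is the 250 bases before the annotated transcription start, on the gene's strand, 5′ to 3′, from RefSeq on GRCh38.p14: chr10:90921088-90921337 on the minus strand for ANKRD1, chr6:131951373-131951622 on the minus strand for CCN2 and chr9:128149203-128149452 on the plus strand for LCN2. Capitals mark GGAATG, or CATTCC where the motif lies on the opposite strand.
ANKRD1: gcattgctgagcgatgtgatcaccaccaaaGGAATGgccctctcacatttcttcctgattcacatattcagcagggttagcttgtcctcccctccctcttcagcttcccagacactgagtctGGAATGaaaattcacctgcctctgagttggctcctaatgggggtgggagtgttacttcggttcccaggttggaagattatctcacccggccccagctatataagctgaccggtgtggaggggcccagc
CCN2: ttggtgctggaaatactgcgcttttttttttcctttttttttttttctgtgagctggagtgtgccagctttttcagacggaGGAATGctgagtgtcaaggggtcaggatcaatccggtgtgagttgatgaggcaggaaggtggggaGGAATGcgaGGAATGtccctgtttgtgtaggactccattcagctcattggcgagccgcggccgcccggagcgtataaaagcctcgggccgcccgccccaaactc
LCN2: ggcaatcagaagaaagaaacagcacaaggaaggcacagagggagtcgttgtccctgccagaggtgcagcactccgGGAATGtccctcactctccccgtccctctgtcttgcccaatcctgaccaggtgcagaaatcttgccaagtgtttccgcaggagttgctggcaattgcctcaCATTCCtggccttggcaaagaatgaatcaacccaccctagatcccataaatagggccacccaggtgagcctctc
ANKRD1 held 2 matches, whose first bases were 220 and 128 bases before the start. CCN2 held 3 matches, at 169, 104 and 95 bases before the start. LCN2 held 1 match at 175 bases and 1 on the opposite strand at 74 bases. The window of SPP1, taken in the same way but not printed, held 0 matches. Windows were on hand for 24 of the 31 genes higher on VPA, with none for CCN1. At least 1 GGAATG on either strand was in 3 of these 24 (12.5%), the third being CNTN1, and in 1418 of the 14210 measured genes with a window (9.98%). At least 2 matches were in 2 of 24 (8.33%) and in 0.76% of measured genes. Those 2 are ANKRD1 and CCN2, both on the YAP and TEAD target list, so this share does not describe the VPA side as a whole. All 4 genes higher on GEM had a window, and 1 of them, LCN2, held GGAATG, with at least 2 matches. The motif was thus not particular to the VPA side. The AP-1 motif TGANTCA, searched on both strands, was in 2 of 24 (8.33%), ANKRD1 and HLA-DPB1, and in 4.91% of measured genes. Of the 4 genes higher on GEM, LCN2 alone also held it, at 52 bases. The CArG box was in 1 of 24 (4.17%), ARHGDIB, against 1.17%, and the cAMP-response motif TGACGTCA was in 0 of 24 against 2.38%. Of the 4 genes higher on GEM, H2BC21 alone also held a CArG box. Counted genes had to be at level. Among all genes at level with a window, GGAATG was in 8.99%, with at least 2 matches in 0.65%. There the AP-1 motif was in 3.77%, the CArG box in 0.964% and the cAMP-response motif in 3.0%. The motifs were searched one by one, with any overlap between them left in. A match describes letters in this window and not a bound factor, and an absent match says only that the letters are not in the window.

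In the second group of genes higher on VPA, 12 in number, GEM was the low array. PRKAR2B, a regulatory subunit of the cAMP-dependent protein kinase, was at 10.00 untreated, 9.39 on VPA, 8.23 on GEM and 10.79 on GEM_VPA. LRRCC1, a centrosomal protein, was at 9.71 untreated, 9.03 on VPA, 7.96 on GEM and 10.26 on GEM_VPA. ENPP1, an enzyme that makes extracellular pyrophosphate from ATP, was at 9.74 untreated, 9.44 on VPA, 8.14 on GEM and 10.66 on GEM_VPA. In these 3 genes both agents alone were below untreated, GEM by more, and GEM_VPA was above it. SGCE, CCDC88A and LRRC49 had the same order of arrays, with VPA minus GEM differences of 1.13, 1.03 and 1.13. SGCE is a member of the sarcoglycan family of membrane proteins, and CCDC88A encodes girdin, an actin-binding protein. CALB2, the calcium-binding protein calretinin, stood at 8.71 untreated, 8.73 on VPA, 7.44 on GEM and 9.43 on GEM_VPA. CAMK4, a calcium and calmodulin-dependent kinase, was at 9.46 untreated, 9.46 on VPA, 8.45 on GEM and 10.05 on GEM_VPA. Both of these calcium-linked genes had the same value on VPA as in untreated cells within 0.02, and their separation came from the GEM array. CPM, a membrane carboxypeptidase, was 1.28 higher on VPA than on GEM. PEG10, an imprinted gene derived from a retrotransposon, was 1.24 higher, and SEPTIN3, a cytoskeletal GTPase of neurons, 1.14 higher. PLCE1, a phospholipase C that Ras activates, was 1.02 higher. In all 12 genes GEM_VPA was above untreated, by 0.35 to 0.92.

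The 4 genes higher on GEM encode a defence protein, a lipid transporter, a histone and a STAT partner. LCN2, the secreted siderophore-binding defence protein lipocalin 2, was at 8.81 untreated, 9.86 on VPA, 11.22 on GEM and 8.21 on GEM_VPA. Each single agent was above untreated, GEM by 2.41 and VPA by 1.05, and the combination minus untreated was -0.60. The VPA minus GEM difference was -1.36, or 2.57-fold. ABCA12, a lipid transporter of the skin barrier, was at 6.76 untreated, 7.95 on VPA, 9.08 on GEM and 6.68 on GEM_VPA, the same order, with a difference of -1.13. H2BC21, a histone H2B gene, was at 9.21 untreated, 9.19 on VPA, 10.40 on GEM and 8.97 on GEM_VPA, so GEM was the only high array. Histone genes have near-identical copies and its probes may read others. NMI, an interferon-induced partner of STAT proteins, was at 8.68 untreated, 7.81 on VPA, 8.83 on GEM and 7.99 on GEM_VPA. In NMI and H2BC21 both arrays with VPA in their label were below both arrays without it, though VPA minus untreated was only -0.02 for H2BC21 against -0.87 for NMI.

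The 2 remaining arrays, GEM_VPA and untreated, give a second difference that shares no array with VPA minus GEM, although all 4 arrays were normalized together. GEM_VPA was above untreated for 29 of the 31 genes higher on VPA (93.5%), the exceptions being ANKRD1 and PSG4, with a median of 0.67. Among the genes at level, 43.0% were above untreated on GEM_VPA. Only 4 of the 31 were at least 2-fold higher there, CNTN1, IQGAP2, SPP1 and SSBP2, and 0 were 2-fold lower. The whole pair had 17 such genes of 11489 (0.148%), 14 higher (0.122%) and 3 lower (0.0261%). All 4 genes higher on GEM were below untreated on GEM_VPA, with a median of -0.42, where 56.9% of genes at level were below. At the limit of 1.5-fold, 210 of the 228 genes higher on VPA (92.1%) were above untreated on GEM_VPA and 29 of the 36 higher on GEM (80.6%) were below. Over the 11477 genes at level, the VPA minus GEM and GEM_VPA minus untreated differences had a Pearson correlation of r = 0.54 and a Spearman rank correlation of 0.45. This correlation is across genes, which are not independent replicates, and its points share the array design and the joint normalization. The largest differences of the first comparison thus had the same sign in the second in all but 2 cases. The size was smaller in the second for all of the 35 except CNTN1.

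**Figure D3:**
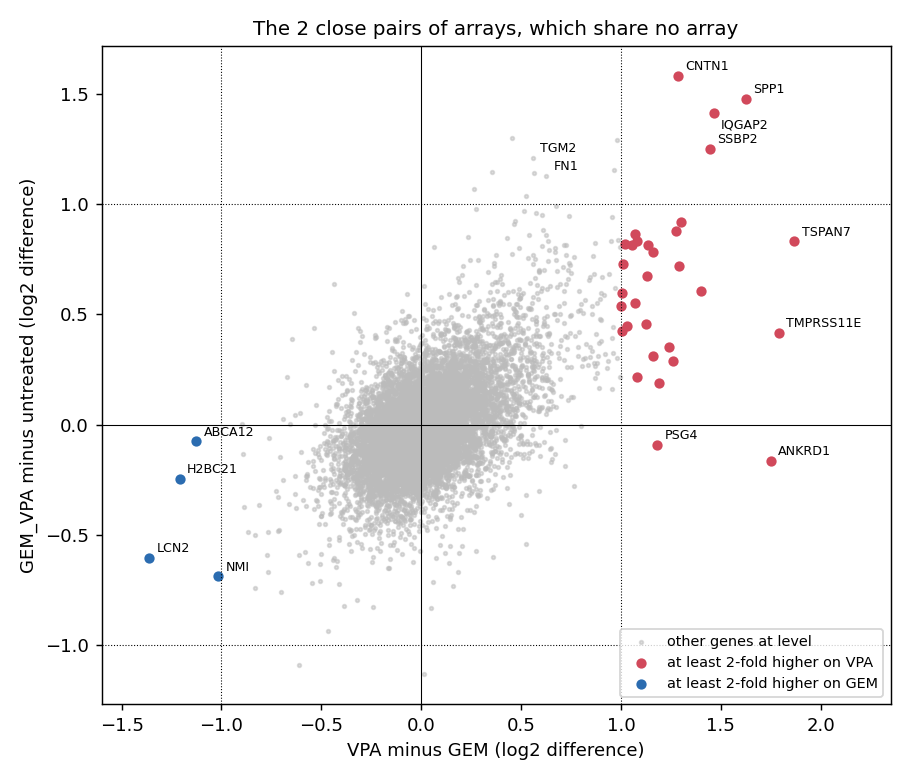
Difference between GEM_VPA and untreated (y axis, log2) against the difference between VPA and GEM (x axis, log2) for the genes at level, with the 35 genes that differed at least 2-fold between VPA and GEM in colour (1 array per condition, so no error bars). Dotted lines mark 2-fold. Of the 31 genes higher on VPA, 29 lie above 0 on the y axis, and all 4 genes higher on GEM lie below 0.

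Genome position and gene length were looked at as properties that the rule did not use. Measured genes were set in RefSeq GRCh38.p14 order, with genes not measured left out, and neighbours and places below refer to that order. The 35 genes included 2 pairs that are direct neighbours in it. SGCE and PEG10 on chromosome 7 are known imprinted neighbours. ENPP1 and CCN2 lie side by side on chromosome 6, where the next measured gene, MOXD1, was 0.82 higher on VPA. Of 72 genes within 2 places of a counted gene, at level and not counted themselves, MOXD1 among them, 63 differed by under 0.5 in either direction. At least 0.5 higher on VPA were 8 (11.1%, against 2.89% of all genes at level and not counted). Neighbours of genes higher on VPA and of genes higher on GEM are pooled here. FN1, among the 8 at 0.63, lies 2 places from ABCA12, which was higher on GEM. The 31 genes higher on VPA had a median span of 38843 bases against 27131 for all genes at level. Of the 31, 11 were among the 2294 longest of the 11468 genes at level with a span. The 2294 shortest held 3 of the 31. The median VPA minus GEM difference of genes at level was -0.04 in the shortest of 5 bins of span, each with about as many genes, and 0.03 in the longest. For GEM_VPA minus untreated these medians were -0.08 and 0.08. Whether span has a part in the counted genes was not tested.

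The medians of most pathway lists differed little between the agents. Of 36 lists, with 693 different genes measured, 29 had no member that differed 2-fold, and 27 had a median within 0.1 of 0. Of the 693 genes, at level or not, 4 were counted higher on VPA and 3 higher on GEM. The lists were chosen with earlier results of these data known, so these counts cannot be read against a background share. Of all 18377 measured genes 35 were counted, and they made up 0.305% of the 11477 at level. At so low a share most lists would hold no counted gene, so an absence of counted members says little about a list. Cell-cycle genes gave the largest medians. Of 29 G2/M and mitosis genes, which run chromosome segregation, 28 were higher on VPA, with a median of 0.28. Both agents were below untreated for this list, by a median of -0.78 on VPA and -1.07 on GEM. CDC25C, the phosphatase that starts mitosis, was at 9.49 untreated, 8.89 on VPA, 8.25 on GEM and 9.38 on GEM_VPA, a difference of 0.64. CENPE and NUF2, which act at the kinetochore, differed by 0.54 and 0.53, and BIRC5 by -0.01. Of 29 DNA replication and G1/S genes 23 were higher on VPA, with a median of 0.24, against medians of -1.08 on VPA and -1.31 on GEM relative to untreated. PRIM1, the catalytic primase, was at 11.47 untreated, 10.38 on VPA, 9.79 on GEM and 11.38 on GEM_VPA. LIG1 and CDT1 differed by -0.16 each, on the other side. DNA repair genes had 16 of 19 higher on VPA with a median of 0.17. In bulk RNA, fewer cells in a cycle phase and less RNA per cell cannot be told apart.

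The p53 targets went the other way. Of 22 measured, 20 were higher on GEM, with a median VPA minus GEM difference of -0.21, and the list stood above untreated by a median of 0.54 on VPA and 0.74 on GEM. TP53I3, an oxidoreductase induced by p53, was at 9.54 untreated, 10.50 on VPA, 11.36 on GEM and 9.05 on GEM_VPA, a difference of -0.87. CDKN1A, the cyclin-dependent kinase inhibitor p21, was at 11.17 untreated, 12.63 on VPA, 13.04 on GEM and 11.05 on GEM_VPA, a difference of -0.41. Both genes were above untreated on each agent alone and below it on the combination. SESN1 and the death receptor FAS differed by -0.43 and -0.41, while PLK3 and DDB2 were 0.06 and 0.08 on the VPA side. Apoptosis genes had 17 of 23 lower on VPA, with a median of -0.12, led by BIK at -0.49 and BCL2L11 at -0.48, both killer proteins of the BCL2 family. BCL2L1, which opposes them, differed by -0.02, a sign that turned when the arrays were normalized again. Heat-shock and chaperone genes had 13 of 14 lower on VPA with a median of -0.11, the exception being HSPB8 at 0.56. None of these members reached 2-fold, and over all 18377 genes 8800 were higher on VPA.

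Genes tied to each agent's own mechanism held 1 difference past 2-fold, that of H2BC21. Of 16 genes known to respond to histone deacetylase inhibitors 11 were higher on VPA, with a median of 0.05 and a mean of -0.05 of the other sign. The members furthest below 0 were H2BC21 at -1.21 and H2BC12 at -0.77. The list of replication-dependent histone genes had 26 of 45 higher on VPA and a median of 0.04, with H2BC14 at 0.72 and H2AC14 at -0.67. Gemcitabine uptake, activation and target genes had 10 of 15 higher on VPA with a median of 0.06. DCK, the kinase that activates gemcitabine, was 0.41 higher on VPA, and the ribonucleotide reductase subunits RRM1 and RRM2 were 0.35 and 0.27 higher. CDA, which inactivates the drug, differed by 0.09, and SLC29A1, the transporter that brings it in, by -0.06. Both agents had CDA above the untreated value of 10.81, at 12.17 on VPA and 12.09 on GEM.

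Matrix, epithelial and defence genes held some larger differences, with list medians near 0 when all measured members are counted. Of 27 matrix and integrin genes 16 were higher on VPA and 11 lower, with a median of 0.04 and a mean of 0.22. For the 20 of them at level the median was 0.23. SPP1 was the only one past 2-fold. LOXL2, which cross-links collagen, was 0.88 higher on VPA, and TGM2, a transglutaminase, 0.56 higher. The integrins ITGA2, ITGAV and ITGB5 were 0.53, 0.46 and 0.44 higher, while ITGB4 and ITGB6 differed by -0.17 and -0.14. FN1, which encodes fibronectin, stood at 8.82 untreated, 11.52 on VPA, 10.90 on GEM and 9.95 on GEM_VPA, above untreated on all 3 treated arrays. VIM was 0.27 higher on VPA and CDH1 differed by -0.12. The list of epithelial defence, lipocalin, S100 and kallikrein genes had 12 higher and 15 lower on VPA. Its median was -0.05, and -0.17 for members at level. On the GEM side were LCN2 at -1.36, the kallikrein KLK5 at -0.81 and lysozyme, LYZ, at -0.54. On the VPA side were the vitamin B12 carrier TCN1 at 0.76 and the protease inhibitor SLPI at 0.69. CEACAM1, an epithelial adhesion protein, was at 7.86 untreated, 9.90 on VPA, 10.45 on GEM and 7.75 on GEM_VPA, a difference of -0.54. Among ABC transporters, which pump lipids and drugs, ABCA12 was on the GEM side while ABCA5, ABCG2 and ABCB1 were 0.97, 0.64 and 0.63 higher on VPA. Cholesterol and fatty acid synthesis genes had 13 of 17 higher on VPA, median 0.15, with the sterol carrier STARD4 at 0.80. NF-kB, chemokine and interleukin genes had 18 of 24 lower on VPA, median -0.06, with the inhibitor NFKBIA at -0.61. Interferon-stimulated genes had 18 of 29 higher, median 0.03, with IFI6 at 0.66. Ribosomal protein genes, listed as a control, had 33 of 41 lower on VPA at a median of only -0.06, so a lopsided count went with a very small size there. MYC and CCND1 differed by -0.12 and -0.08.

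**Figure D4:**
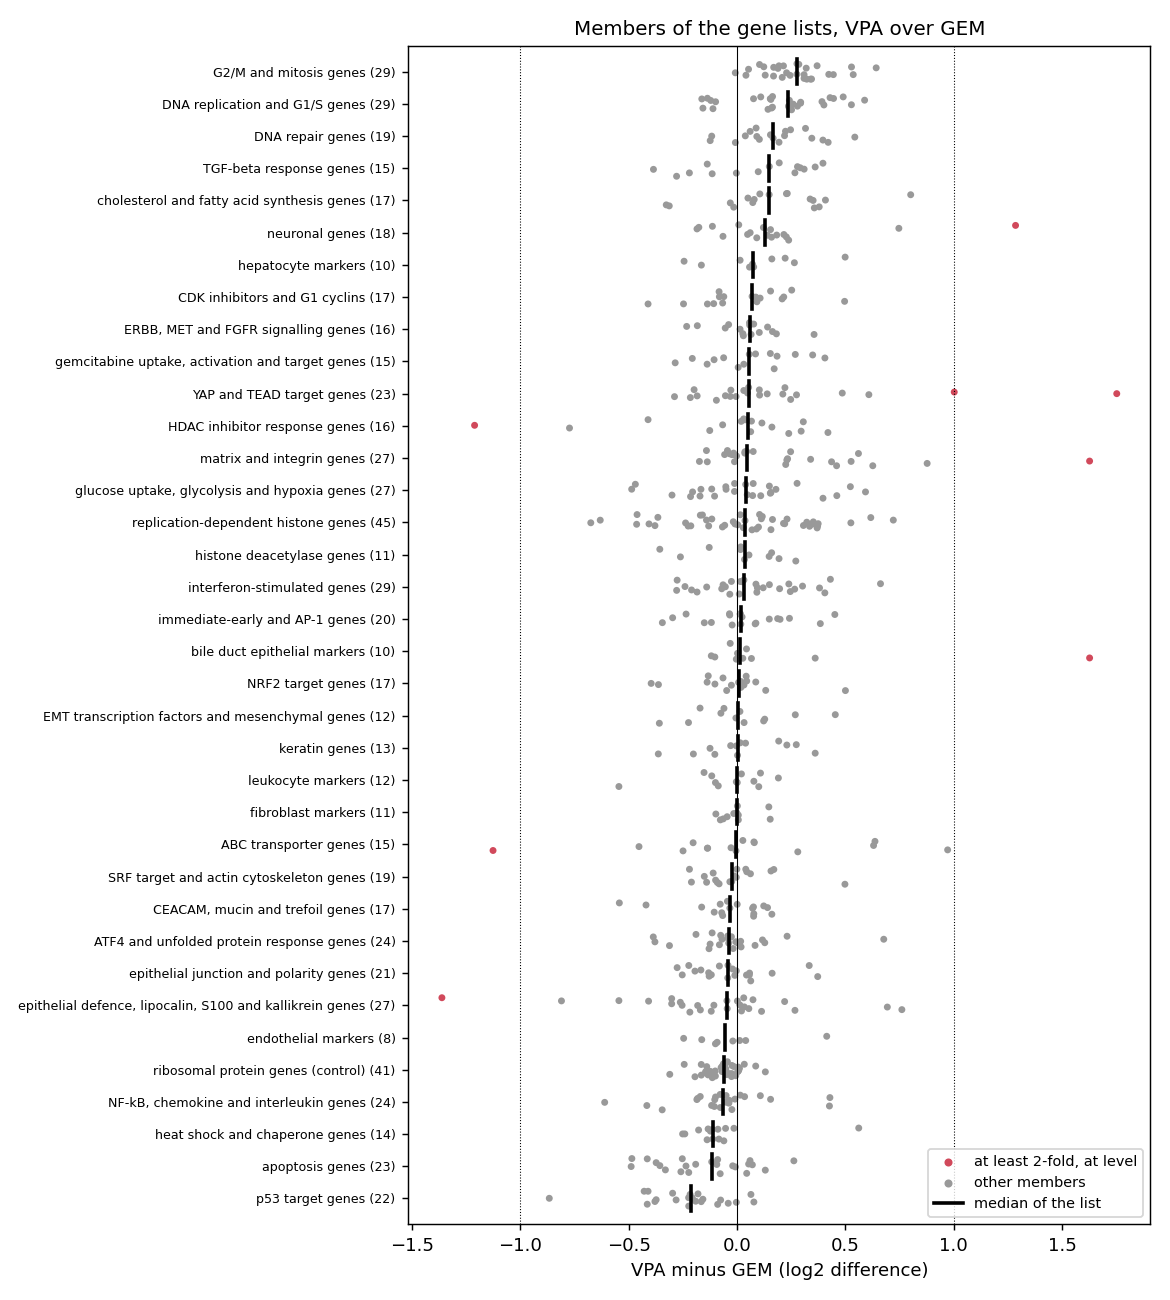
VPA minus GEM difference (x axis, log2) of the measured members of the gene lists (y axis, 1 list per row), with 1 point per gene and a mark at each list's median (1 array per condition, so no error bars). The median lies within 0.1 of 0 for 27 of 36 lists; G2/M genes sit to the right with a median of 0.28 and p53 targets to the left with a median of -0.21.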

How the data were processed

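RNA of 4 HuCCT1 samples was hybridised to 1 Affymetrix Human Gene 1.0 ST array each. The authors deposited log2 intensity values, made by RMA per the submitters' processing notes and with GeneSpring GX 11.5 per the labels; background correction and array scaling were thus done before deposit, and the sources used here name no genome build. Scanner files were not used here.

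Of 28869 probe sets, 19310 carried exactly 1 gene symbol in the platform annotation, 1752 several and 7807 none. Probe sets of a gene were averaged, giving 18377 genes, 685 of them from more than 1 probe set. The VPA minus GEM difference was taken per gene with no further normalization. A gene was counted at a difference of at least 1 on the log2 scale (2-fold) with the higher value at or above its array's median. With 1 array per condition there is no test, error or p-value. The scripts were tested on simulated data.

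Genes named were the 15 largest and 15 smallest ratios among those counted, up to 4 counted members of each list, and, whatever their values, ANKRD1, CCN1, CCN2, FN1, LCN2, CEACAM1, VIM, CDH1, BCL2L1, CCND1, MYC, SLC29A1, RRM2, RRM1, DCK, CDA and CDKN1A. All others, CD274, PRKAR2B, SEPTIN3, SGCE and LRRC49 among them, were named after their values were seen. The members and lists were chosen with earlier results of these data known. Alternatives changed the fold limit, the level rule, the normalization, the choice of probe set and the list summary. Python 3.11.15, numpy 2.4.6, pandas 2.3.3, scipy 1.17.1 and matplotlib 3.10.9 were used.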

Additional observations from a re-analysis of the deposited data

Results flagged for a closer look

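The gene-level comparison used only probe sets with exactly 1 symbol. Among the 9559 left out, 12 passed the same 2-fold and level rule, 10 higher on VPA and 2 higher on GEM. Of these, 6 are annotated to several HLA class II genes, and all 6 were higher on VPA than on GEM and above the untreated array on both, by 2.47 to 3.14 on VPA and 1.32 to 2.04 on GEM. Some are annotated to HLA-DRA with HLA-DQA1 and the others to HLA-DRB genes with HLA-DQB1, with close values within each kind. They are thus not 6 separate signals. They drew attention because these probe sets lie outside the gene-level comparison, in which HLA-DPB1 was counted, and above the untreated control. No gene can be named from them, and the difference has no replicate check.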

How the results depend on the processing

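No paired analysis was possible because each condition had 1 array and the labels give no replicate numbers. For the same reason no array could be left out. Of the VPA over GEM count of 35 genes, 34 were kept when the arrays were quantile normalized again (37 in all, without CCN2 and with DCLK1, HLA-DMA and NUCB2), and 31 when arrays were centred on their medians (without CAMK4, CCN2, PHOSPHO1 and TSPAN13). With a 1.5-fold limit the count was 264 (228 higher, 36 lower), with a 3-fold limit 4 (4 higher, 0 lower), and with both values at level 22 (19 higher). For GEM_VPA over untreated the count of 17 became 184 (142 higher, 42 lower), 1 (0 higher, 1 lower) and 10 (8 higher) under these settings; its 3 lower genes became 5 over all probe sets, with the level at the 25th percentile and with no level filter. Genes higher on VPA with GEM_VPA above untreated numbered 210, 3 and 17 under the same 3 settings, against 29. Those with untreated nearer VPA numbered 118 and 0 under the 1.5-fold and 3-fold limits, against 12.

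List values moved with the mean in place of the median for histone deacetylase inhibitor response genes (-0.052), YAP and TEAD targets (0.18), bile duct markers (0.19) and matrix genes (0.22). With members at level only, they moved for TGF-beta response genes (-0.0026), endothelial markers (0.084), epithelial defence genes (-0.17) and matrix genes (0.23). The other 172 list values stayed within the range set for them, as did 131 values of named genes, all but 1. HLA-DPB1 was 1.64 with its highest-level probe set alone. The medians of 8 lists changed sign under at least 1 alternative: those of the histone deacetylase inhibitor, TGF-beta and endothelial lists as above, and those of the ABC transporter, EMT, NRF2, fibroblast and keratin lists, whose medians were all within 0.01 of 0. BCL2L1 went from -0.02 to 0.0038 when normalized again. None of the 35 counted genes changed sign. Values below the 25th percentile of an array carry little signal over background.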

Other observations

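Genes that miss the level rule but differ 2-fold were ANKRD22 (7.48 on VPA, 6.27 on GEM), CALCRL, a receptor for vasoactive peptides (7.70 on VPA, 6.40 on GEM), and LGALS9, which encodes galectin-9 (6.68 on VPA, 7.69 on GEM). Genes just under the 2-fold limit on the VPA side were HLA-DMA (0.99), DCLK1, a microtubule-associated kinase (0.99), and ETS1, a transcription factor (0.99). On the GEM side the nearest were UPK2, a urothelial membrane protein (-0.90), and the long non-coding RNA MIR31HG (-0.89). The keratin-associated KRTAP3-1 was far above untreated on both agents and differed between them by 0.01: it was at 9.12 untreated, 13.60 on VPA, 13.59 on GEM and 9.32 on GEM_VPA.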
